A study of Drosophila melanogaster with 2 samples.

Results

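The vacuolar ATPase subunit genes of Drosophila melanogaster were taken as the protein-coding genes of the Ensembl BDGP6 annotation whose symbol starts with Vha, which gave 33 of 13945 protein-coding genes. They were sorted into 14 main copies, 1 for each subunit, and 19 other paralogs. The main copies are those known from background to be used in most tissues, and many of the other paralogs are known for restricted use, often in the testis or the nervous system. Vha68-1 and Vha100-1 were placed among the other paralogs although Vha68-1 is less clearly restricted. The accessory gene ATP6AP2, once named VhaM8.9, does not carry the prefix and was not a member. Expression was not measured in these samples, so the division rests on background knowledge and not on the ovaries themselves.

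The vacuolar ATPase is a rotary pump that hydrolyses ATP in its cytosolic V1 sector and moves protons through its membrane V0 sector. It acidifies lysosomes, endosomes and secretory vesicles, and in some epithelia it sits in the plasma membrane and energises transport. The subunits are assembled in fixed proportions. In flies as in mammals the transcription factors of the MITF family, which bind the word CACGTG, are known regulators of these genes.

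Peaks of CG17801 came from chromatin immunoprecipitation and sequencing of adult female ovaries. The factor belongs to the ZAD family of zinc finger proteins, and the flies were of 1 transgenic line in which a site-specific insertion made CG17801 with GFP at its C-terminus. An antibody against GFP was used on 2 biological replicates, numbered 1 and 3, which form the only group and share that insertion. Their age is unknown, and the labels do not name the promoter that drives the fusion. The ovary holds germline and somatic cells together, so the peaks are those of the mixture, and peak lists hold no expression markers against which the labelled tissue could be checked. Control chromatin was not analysed here, so binding that another GFP fusion would show at the same promoters cannot be told apart from that of CG17801.

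Each replicate list and the pooled list held 30000 peaks, and the reproducible list that the authors kept by the irreproducible discovery rate (IDR) procedure held 6723. Peak signal is the value deposited by the authors, on a scale not stated, and it ran from 117 to 4011 in the IDR list with a median of 180. Rank 1 is the strongest peak of a list. The IDR and pooled lists were made from the same 2 replicates, so agreement among the 4 lists is not independent. Read depth is unknown from peak lists, and values therefore carry no counting error. Bound genes are those with an IDR summit 250 bp or less from any annotated transcription start site (TSS). The 33 genes are not replicates of a condition, and no test was made over them.

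CG17801-GFP had a reproducible promoter peak at every main copy and at few of the other paralogs. Of the 33 genes, 18 were bound (54.5%), against 30.4% of all protein-coding genes (4245 of 13945). All 14 main copies were bound, while 4 of the 19 other paralogs were (21.1%), and these were Vha68-1, Vha100-1, VhaM9.7-a and VhaM9.7-c. The split held in each sector of the pump. In V1, 8 of 8 main copies and 1 of 5 other paralogs were bound. In V0 the counts were 5 of 5 and 3 of 13, and of the accessory subunit Ac45 the main copy was bound and the other paralog was not. Of the 9 subunits with more than 1 gene, 6 had a peak at the main copy alone.

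**Figure D1:**
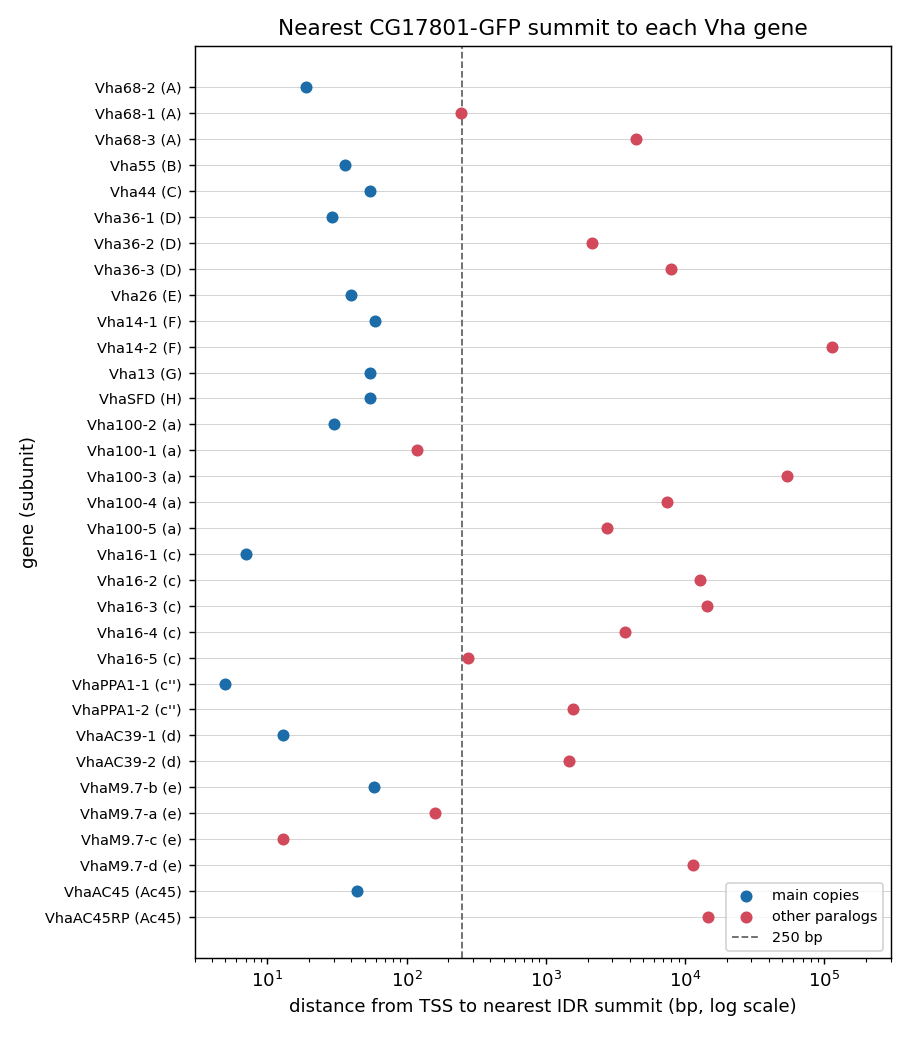
Distance in bp, on a log axis, from the nearest TSS of each of the 33 Vha genes to the nearest IDR summit, with the subunit in brackets, main copies in blue and other paralogs in red. All 14 main copies lie left of the dashed line at 250 bp, while 15 of the 19 other paralogs lie to its right, with Vha68-1 at 245 bp and Vha16-5 at 276 bp on either side of it.

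The promoters of a bound copy and of an unbound neighbour of the same subunit are shown here, with promoters of bound main copies that hold the words searched. Each run covers 130 bases before the TSS and the first 30 bases from it, read 5′ to 3′ on the gene's strand, from the RefSeq Release 6 (dm6) genome. Capitals mark matches on either strand to the 7 words searched, of which 5 occur in these runs. They are CGATA, whose reverse strand reads TATCG, the longer TATCGATA that contains it, the motif 1 word GGTCACAC, the E-box word CACGTG, and the TATA box word TATAAA, whose reverse strand reads TTTATA. Vha68-2 (chr2L:12974192-12974351, plus strand) and its tandem neighbour Vha68-3 (chr2L:12978656-12978815, plus strand) encode copies of subunit A, bound and unbound.
Vha68-2: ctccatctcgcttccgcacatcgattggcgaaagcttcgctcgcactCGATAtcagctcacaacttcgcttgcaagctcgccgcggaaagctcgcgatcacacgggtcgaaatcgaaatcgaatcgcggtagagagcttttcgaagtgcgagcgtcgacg
Vha68-3: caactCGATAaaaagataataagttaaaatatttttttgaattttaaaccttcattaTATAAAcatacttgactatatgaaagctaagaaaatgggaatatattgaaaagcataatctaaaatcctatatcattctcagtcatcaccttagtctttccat
VhaPPA1-1 (chr3R:14904032-14904191, minus strand) and VhaPPA1-2 (chr3R:14900248-14900407, minus strand) are the neighbouring copies of the c″ subunit, again bound and unbound.
VhaPPA1-1: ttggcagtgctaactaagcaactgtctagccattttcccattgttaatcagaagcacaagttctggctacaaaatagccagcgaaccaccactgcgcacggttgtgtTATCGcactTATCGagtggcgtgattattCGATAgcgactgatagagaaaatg
VhaPPA1-2: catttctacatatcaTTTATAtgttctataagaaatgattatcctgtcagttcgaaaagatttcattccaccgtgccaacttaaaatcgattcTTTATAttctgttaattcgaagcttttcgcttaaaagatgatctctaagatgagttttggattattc
Vha26 (chr3R:5591633-5591792, plus strand), the E subunit, holds GGTCACAC across its TSS, and VhaSFD (chr2L:16727797-16727956, minus strand), the H subunit, holds TATCGATA.
Vha26: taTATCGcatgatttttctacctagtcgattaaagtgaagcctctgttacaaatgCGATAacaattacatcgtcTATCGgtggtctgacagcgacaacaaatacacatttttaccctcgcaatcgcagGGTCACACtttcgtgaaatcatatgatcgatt
VhaSFD: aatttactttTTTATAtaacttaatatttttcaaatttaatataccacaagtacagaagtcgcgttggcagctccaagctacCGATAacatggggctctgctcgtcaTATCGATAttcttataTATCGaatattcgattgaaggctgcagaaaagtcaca
For the B subunit gene Vha55, the 30 bases around the CACGTG beside its summit are shown (chr3R:12627756-12627785, minus strand).
Vha55: gtcatgtgacggCACGTGacgtcacagcag
The peak assigned to Vha68-1 lies far from its TSS, and the run shows 80 bases on each side of that summit (chr2L:13004272-13004432, minus strand).
Vha68-1: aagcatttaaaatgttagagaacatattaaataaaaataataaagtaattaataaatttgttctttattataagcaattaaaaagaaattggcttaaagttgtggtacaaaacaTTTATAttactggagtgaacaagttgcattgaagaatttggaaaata
The runs of the unbound Vha68-3 and VhaPPA1-2 were 75.6% and 70.0% A+T, against 43.8% and 55.0% in the bound Vha68-2 and VhaPPA1-1, and the run at the Vha68-1 summit was 78.9% A+T. In the same window the unbound Vha100-4 went the other way at 46.9%, while the unbound Vha16-2 was at 72.5%. The bound Vha13, Vha26 and VhaSFD were at 50.6%, 60.6% and 65.6%. Over all genes the median of the 300-base promoter windows was 62.7% A+T in bound and 61.3% in unbound genes.

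Among the catalytic V1 subunits, the A subunit gene Vha68-2 (2L, 12974322 to 12978607), which with B forms the ATP-hydrolysing ring, had its IDR summit 19 bp downstream of the TSS with a signal of 224 (rank 2287). In the replicates it ranked 2361 with a signal of 100 and 2211 with a signal of 134, so its strength was alike in both. Vha55 (3R, 12623762 to 12627829), the only B subunit gene, was among the weaker members, with a signal of 144 (rank 4926). Its replicate ranks were 5488 and 4109. Vha55 has 3 annotated TSSs within reach of the same summit, which lay 36 bp upstream of the nearest, in the 5′ UTR of the gene.

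Vha36-1, the D subunit of the central rotor shaft, had the strongest promoter peak of the family in the IDR list. Its summit lay 29 bp upstream of the TSS with a signal of 344 (rank 1070), and its ranks of 1136 and 1170 in the replicates were close. Of all bound genes, 82.9% had a weaker best peak than Vha36-1. The F subunit gene Vha14-1, also of the rotor, had a summit 59 bp downstream with a signal of 166 (rank 3905), and ranked 3454 and 4392 in the replicates. Both genes have 1 exon, Vha36-1 at 2R, 15541435 to 15542498, and Vha14-1 at 2R, 15679426 to 15680084.

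The genes of the peripheral stalk and its regulators ranked from 1690 to 3758, within a family range of 1070 to 5709. Vha13 (3R, 19643018 to 19644386), the G subunit, had the next strongest peak, with its summit 55 bp downstream of the TSS and a signal of 266 (rank 1690). It ranked 1099 in replicate 1 and 2943 in replicate 3, a wider gap than at Vha36-1. Vha26 (3R, 5591763 to 5595356), the E subunit that pairs with G, had a summit 40 bp downstream with a signal of 236 (rank 2090), and ranked 2642 and 1930. Both are stalk subunits that hold the ATPase ring still against the rotor. Vha44 (2R, 16324813 to 16336637), the C subunit that joins the stalk to the membrane sector, had a summit 55 bp upstream with a signal of 252 (rank 1873), and ranked 2232 and 1763. VhaSFD (2L, 16722883 to 16727826), the H subunit known to restrain ATP hydrolysis by free V1, was weaker, with a signal of 170 (rank 3758) and a summit 55 bp downstream, and ranked 3443 and 4895.

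In the membrane sector the main copy of the proteolipid ring, Vha16-1 (2R, 6625242 to 6633090), which encodes subunit c, had a summit 14 bp downstream of a TSS with a signal of 227 (rank 2230). It ranked 2747 and 1888 in the replicates. Another TSS of Vha16-1 had an IDR summit of its own 7 bp upstream, with a signal of 119 (rank 6513). VhaPPA1-1 (3R, 14902330 to 14904061), the c″ subunit of the same ring, had a summit 5 bp downstream with a signal of 184 (rank 3205), and ranked 4368 and 3015. Vha100-2 (3R, 18390323 to 18399169), the large subunit a that holds the channels through which protons pass, had a summit 30 bp upstream with a signal of 186 (rank 3165), and ranked 2126 and 4235. Each of these summits lay within 30 bp of a start site and had a peak in both replicates.

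The d and e subunit genes of V0 had the weakest peaks of the main copies together with Vha55. VhaAC39-1 (X, 3880748 to 3882967), the d subunit that links ring and rotor shaft, had a summit 13 bp downstream with a signal of 155 (rank 4426). Its rank was better in replicate 1, with a rank of 2552 in replicate 1 and 5373 in replicate 3. VhaM9.7-b (3L, 21539862 to 21541215), the small e subunit, had a summit 58 bp upstream with a signal of 136 (rank 5380), and ranked 5251 and 5458. The accessory gene VhaAC45 (2R, 9207561 to 9209774), whose product associates with V0, had a signal of 168 (rank 3818) and a summit 44 bp downstream. It ranked 6153 in replicate 1 and 3496 in replicate 3.

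The 4 bound paralogs other than the main copies differed from one another in strength and position. VhaM9.7-c (3L, 4186018 to 4186865), a copy of the e subunit, was the strongest, with its summit 13 bp upstream of the TSS and a signal of 199 (rank 2785), and it ranked 5166 in replicate 1 and 2458 in replicate 3. That summit also lies in introns of Teh2 and CG18675. Vha68-1 (2L, 13000770 to 13004107), the other A subunit gene with a peak, had a signal of 186 (rank 3150) and ranked 3407 and 3428, but its summit was 245 bp upstream, just inside the 250 bp limit. Vha100-1 (3R, 29131193 to 29137980), the a subunit copy known for its role at neuronal synapses, had a summit 118 bp upstream with a signal of 158 (rank 4281), and ranked 4748 and 4622. VhaM9.7-a (3L, 4262705 to 4263464), another e copy, had the weakest of the members' best promoter peaks, with a signal of 130 (rank 5709) 161 bp upstream, and ranked 4572 and 8566. Of all bound genes, 11.7% had a weaker best peak than VhaM9.7-a.

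As a family the bound promoters were of middling strength. Their IDR ranks ran from 1070 to 5709 with a median of 3185, against a median best rank of 3006 for all 4245 bound genes. None of the 18 was among the strongest 1000 peaks of the IDR list. At Vha100-2 a summit of rank 261 lay just outside the 250 bp limit and was not counted. In the replicates the median ranks were 3425 and 3462 of 30000, and 17 of the 18 ranked within the strongest 6723 of both, VhaM9.7-a being the exception with its rank of 8566 in replicate 3. Signals ran from 59.2 to 148 in replicate 1 and from 56.0 to 194 in replicate 3. Each replicate ranked 9 of the 18 higher than the other replicate did. The replicate summits of a gene lay a median of 35 bp apart, at most 114 bp, and within 100 bp at 16 of 18. Across the 18 genes the Spearman correlation of the replicate ranks was 0.476, a description over genes chosen as bound in a list that uses both replicates.

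**Figure D2:**
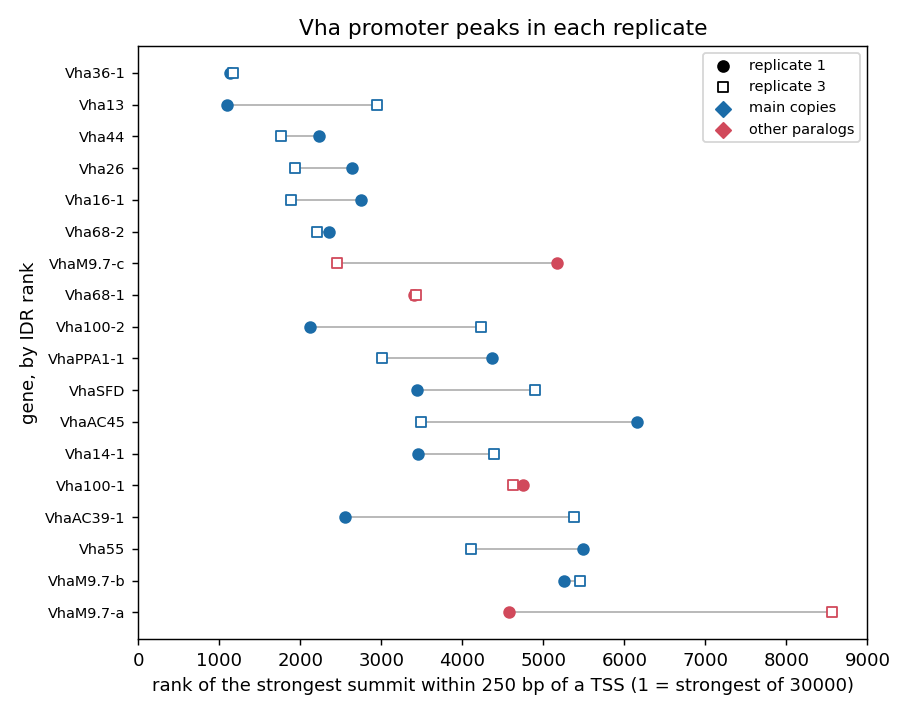
Rank of the strongest summit within 250 bp of a TSS in replicate 1 (filled circles) and replicate 3 (open squares) for the 18 bound Vha genes, ordered by IDR rank, with main copies in blue and other paralogs in red. Vha36-1 ranks 1136 and 1170, while VhaM9.7-a lies at 4572 and 8566.

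The IDR summits of the main copies lay close to the start site. They lay between 58 bp upstream and 59 bp downstream, with a median of 13.5 bp downstream and a median absolute distance of 38.0 bp. In all bound genes the median was 60 bp upstream and the median absolute distance 83.0 bp. Of the 14 main-copy summits, 9 were downstream of the TSS used for the offset, while 29.8% of all bound genes had a best summit downstream. In the annotation 10 of the 14 lay in the 5′ UTR of the gene itself, and 4 lay outside it, at Vha44, Vha36-1, Vha100-2 and VhaM9.7-b. The share of all bound genes with a summit in the 5′ UTR was not computed, so whether 10 of 14 is unusual is unknown. All 4 summits of the other bound paralogs were upstream and outside the gene, from 245 to 13 bp away. The replicates spread wider, with main-copy summits as far as 156 bp upstream in replicate 1, at Vha44, and 120 bp upstream in replicate 3, at VhaM9.7-b. Replicate 1 alone placed the VhaM9.7-c summit 20 bp downstream.

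**Figure D3:**
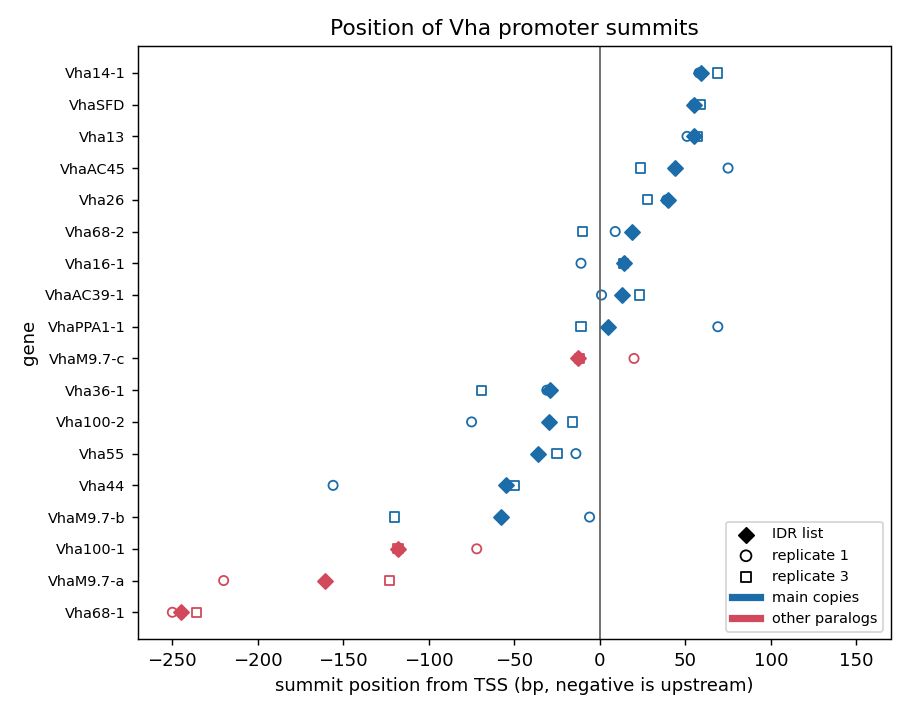
Position in bp of the promoter summit from the TSS (negative is upstream) in the IDR list (diamonds), replicate 1 (circles) and replicate 3 (squares) for the 18 bound Vha genes, with main copies in blue and other paralogs in red. The IDR summits of the main copies lie within 59 bp of the TSS, while 3 of the 4 other paralogs lie over 100 bp upstream.

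Several of these peaks were shared with a gene on the opposite strand. At 5 of the 18 bound members the summit was also within 250 bp of a neighbour's TSS, compared with 42.4% of all bound genes whose peak was shared with another gene. Among main copies these were Vha44 and Vha36-1. The TSS of Vha44 lies 123 bp from that of Hmgs, the hydroxymethylglutaryl-CoA synthase gene, and that of Vha36-1 72 bp from CG8187. Their IDR summits were 55 and 29 bp from their own TSS and 68 and 43 bp from the neighbour's, and that of Vha44 lay in the Hmgs 5′ UTR. The replicate 1 summit of Vha44, 156 bp upstream, lay beyond the Hmgs TSS. The replicate 3 summit of Vha36-1, 69 bp upstream, lay beside the CG8187 TSS. The remaining 12 main copies had a promoter summit with no TSS of another protein-coding gene within 250 bp. Among these, the Vha100-2 summit lay in an intron of Vti1b. Of the 4 other bound paralogs, 3 shared their peak, and in each the IDR summit was nearer to the neighbour. At Vha100-1 the replicate 1 summit differed and lay 72 bp upstream of its TSS. The strongest pooled and replicate 3 summits there were at the IDR position, 118 bp upstream. The pooled and replicate 3 lists held a further, weaker summit 59 and 48 bp from a Vha100-1 TSS. In the IDR list the positions were as follows. The summit at Vha68-1 lay 128 bp upstream of mTor, the gene of the growth-regulating TOR kinase, the summit at Vha100-1 103 bp upstream of dgt6, an augmin subunit gene, and the summit at VhaM9.7-a 74 bp upstream of CG11586. VhaM9.7-c alone among the other paralogs had a peak shared with no TSS of another gene.

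The 15 unbound members had no IDR summit near their start sites. Their nearest IDR summit lay between 276 and 114057 bp away, with a median of 7391 bp. Vha16-5, a c subunit copy, was the nearest, and that summit (signal 302, rank 1332) was 26 bp from the TSS of CG12299. For 13 of the 15 the nearest summit was within 250 bp of the TSS of another gene. Such places are common in the IDR list, where 3699 of 6723 summits lay within 250 bp of a TSS. The summit nearest to Vha36-2 lay 25 bp from Cam, that of Vha36-3 35 bp from egh, and that of VhaAC39-2 6 bp from unk. In the whole pooled and replicate lists, 14 of the 15 still had no summit within 250 bp. VhaPPA1-2 was the exception, with a weak pooled peak of rank 28487 and signal 27.9 and a replicate 3 peak of rank 25630 and signal 18.9, while its nearest replicate 1 summit was 408 bp away.

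Several unbound copies stand beside a bound copy of the same subunit. The IDR summit nearest to Vha68-3 was the Vha68-2 promoter peak itself, 4445 bp away. The summit nearest to Vha100-4, a neighbour of Vha100-2, lay 7391 bp away inside the Vha100-2 gene, 201 bp from the TSS of Vti1b. VhaPPA1-2 lies next to VhaPPA1-1, and its nearest IDR summit was at CG3817, 1574 bp away. Vha16-2 and Vha16-3 are neighbours of each other, and the same summit at chrb, 12786 and 14358 bp away, was nearest to both. Vha14-2, an F subunit copy, was the most distant at 114057 bp.

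Main copies and other paralogs also differed in gene structure. The main copies had a median length of 2907 bp and 4 exons, and 2 of 14 had 1 exon. The other paralogs had a median length of 1371 bp and 2 exons, and 7 of 19 had 1 exon. Genes with more TSSs have more chances to be called bound, and 24.8% of all genes with 1 TSS were bound, 40.8% with 2 and 57.6% with 3 or more. Among members with 1 TSS, 9 of 9 main copies and 3 of 16 other paralogs were bound. With 2 TSSs the counts were 3 of 3 and 1 of 3, and the 2 members with 3 or more were main copies and bound. Their part in the contrast beyond these counts was not tested.

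Some main copies held IDR summits inside the gene as well. Over 250 bp from their own TSSs, 6 such summits lay in 4 main copies, Vha44, Vha26, Vha100-2 and Vha16-1, and 0 in the other paralogs. Of all protein-coding genes, 10.1% held such a summit, beside 28.6% of the main copies. The strongest, in an intron of Vha100-2 (signal 710, rank 261), lay 201 bp from the TSS of Vti1b and outranked the Vha100-2 promoter peak. Its offset from the more downstream TSS of Vha100-2 was -268 bp (negative is upstream), just outside the 250 bp limit. The other Vha100-2 summit counted (signal 208, rank 2605) lay in the same peak interval. It was 401 bp from the Vti1b TSS, also nearer than those of Vha100-2. In Vha44 the summit lay 53 bp from a TSS of Hmgs. Vha16-1 had an intronic summit 1702 bp downstream of a TSS (signal 250, rank 1906), nearer to that TSS than to one of another gene and stronger than its promoter peak of signal 227. Vha26 had an intronic summit 651 bp downstream (signal 138, rank 5247) and an exonic one 3286 bp downstream (signal 163, rank 4047). The main copies are also the longer genes, and the part of length in this count was not tested.

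The contrast between the classes was read under other rules for calling a gene bound. Within 100 bp of a TSS, 15 Vha genes were bound against 18.7% of all genes, all 14 main copies and VhaM9.7-c among them. Within 500 bp the count was 19 against 34.0%, and within 1000 bp again 19 against 37.5%, with Vha16-5 added. When a summit counted for the gene of its nearest TSS alone, 15 were bound against 24.6%, again the 14 main copies and VhaM9.7-c. Counting any overlap of the peak interval gave 19 against 33.0%. In the stronger 3361 IDR peaks 10 were bound against 17.1%, of which 8 were main copies and 2, Vha68-1 and VhaM9.7-c, were not.

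Each replicate by itself gave much the same members. The strongest 6723 peaks of replicate 1 called 18 against 29.4% of all genes, and those of replicate 3 called 17 against 29.8%, with VhaM9.7-a lost. All 14 main copies were bound in both. The whole lists of 30000 peaks add many weak promoters, and all genes rise to 55.4% in the pooled list, 54.0% in replicate 1 and 54.4% in replicate 3. The Vha genes stayed at 19, 18 and 19 there, all 14 main copies and 5, 4 and 5 other paralogs. In the whole pooled list the other paralogs, at 26.3%, stood beside the 55.4% of all genes.

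**Figure D4:**
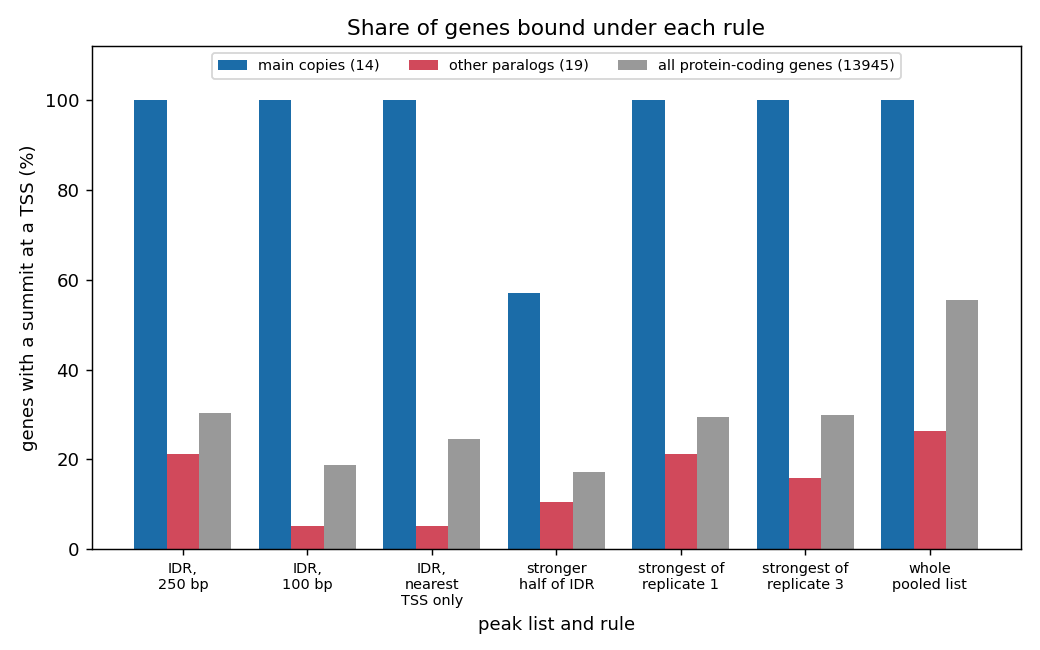
Share of genes in percent with a summit at a TSS for main copies (blue, 14 genes), other paralogs (red, 19) and all protein-coding genes (grey, 13945) under 7 rules, from the IDR list at 250 bp to the whole pooled list. Main copies stand at 100% in all rules shown but the stronger IDR peaks, where the share is 57.1%, and the other paralogs stay below the share of all genes in each.

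Genes that work with the pump were compared through a list of 31 acidification and lysosome genes. Of these, 17 were bound (54.8%) against 30.4% of all genes, with a median best rank of 3150, near the 3185 of the Vha genes. The strongest was Lamtor3, part of the Ragulator that anchors TOR signalling on lysosomes (signal 714, rank 254). It was followed by the protease gene CtsB (signal 408, rank 783) and the lysosomal transporter gene spin (signal 333, rank 1141). The Rabconnectin genes Rbcn-3A and Rbcn-3B, known for assembly of the pump, were bound with ranks of 4392 and 2477. Rbcn-3A had no summit within 250 bp of its TSS in the replicate 1 list, and rank 2713 in that of replicate 3. Also bound was mtd, whose mammalian relatives bind the pump, with rank 2251. The other bound members were path, CtsF, Lamp1, Vps16A, ClC-c, RagC-D, dor, Npc2a, cathD, Lamtor5 and mTor, which shares its peak with Vha68-1. ATP6AP2 had a summit 18 bp upstream with a signal of 274 (rank 1584), stronger than all main copies but Vha36-1. Mitf, the fly MITF gene, had no IDR peak within 250 bp of a TSS and a pooled peak of rank 8372. Its replicates differed, with rank 3842 in replicate 1 and 14307 in replicate 3.

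The mitochondrial ATP synthase, the other rotary ATPase of the cell, was read in the same way. Of 15 genes whose symbol starts with ATPsyn, 8 were bound (53.3%) against 30.4% of all genes, with a median best rank of 3352.5. The 4 whose symbol ends in L had no summit within 250 bp in any list, while of the other 11 genes 8 were bound in the IDR list and 11 in the pooled list, in which 55.4% of all genes were bound.

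None of the 7 words searched was in the promoters of all bound members. A window from 250 bases before to 50 bases from the TSS of the canonical transcript of each gene was read on both strands, and again for every TSS of a gene, a reading added after the data were seen. The second was needed because at Vha68-2, Vha44, Vha100-2 and Vha16-1 the strongest promoter summit lay over 250 bp from the canonical TSS. CACGTG, bound by the MITF family, was in 4.26% of all canonical windows and 4.99% of those of bound genes. It was in 0 of 14 main copies and in 2 of 19 other paralogs, VhaAC45RP and VhaM9.7-d, both unbound. With every TSS read it was in 5.3% of all genes and 6.9% of bound genes. Among members it was then in 3 main copies, Vha44, Vha55 and Vha68-2, and the same 2 other paralogs.

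CGATA was the commonest of the words in the main copies. It was in 46.9% of all canonical windows, 59.2% of those of bound genes, 7 of 14 main copies and 8 other paralogs. With every TSS read it was in 53.0% of all genes, 68.8% of all bound genes, 11 of 14 main copies (78.6%) and 8 other paralogs. TATCGATA, the core of the DNA replication-related element, which contains CGATA, was in 8.94% of all canonical windows, in Vha55 and VhaSFD and in 0 other paralogs. Main copies have more TSSs than other paralogs in some cases, and reading every TSS gives such genes more windows.

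Core promoter words were in members of both classes. GGTCACAC, known as motif 1, was in 7.54% of all canonical windows and 13.5% of those of bound genes. It was in 3 main copies (Vha14-1, Vha16-1 and Vha26) and 1 other paralog (Vha100-1). TATAAA, the TATA box word, was counted at any position of the window and on either strand, so a match does not show a placed TATA box. It was in 45.3% of all, 44.5% of bound genes, 5 main copies and 11 other paralogs. CAGCTG was in 17.9% of all, 24.5% of bound genes, 5 main copies and 3 other paralogs. GAGAGAG, read by GAGA factor, was in 6.2% of all, 6.1% of bound genes and 1 gene of each class. With every TSS read it was in 3 main copies against 9.08% of all genes and 11.8% of bound genes. Median A+T of the canonical windows was 61.0% in main copies, 66.3% in other paralogs and 62.0% over all genes.

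The words were also counted around the summits themselves, which does not depend on which TSS is canonical. The summit of each member was still the strongest within 250 bp of an annotated TSS. Within 100 bp of the summit CACGTG was found at 3 of 18 bound members (16.7%), Vha16-1, Vha44 and Vha55, against 3.0% of 3699 promoter summits of the IDR list. CGATA was at 9 of 18 against 44.3%, and CAGCTG at 5 of 18 against 16.2%. TATAAA was at 4 against 28.6%. TATCGATA, GGTCACAC and GAGAGAG were at 1 member each, against 10.4%, 7.22% and 6.68%. These matches describe the windows and do not show that a factor was bound.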

How the data were processed

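ChIP-seq against GFP was made on ovaries of 1 fly line with a CG17801-GFP fusion, in 2 biological replicates of 1 group. Per the labels, the deposited files are peak lists on dm6. Per the text descriptions deposited with each sample, the replicate lists were made from 1 alignment and a control, the pooled list used both alignments, and the IDR list was derived from these lists. No aligner or caller is named (not given in the sources used here). Peak signal is a value of the authors on an unstated scale and served to rank or select peaks inside 1 list. The deposited −log10 q-values were not used. Depth is unknown, so no counting error is given.

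Summits (peak start plus the deposited offset) were joined to 19607 TSSs of 13945 protein-coding genes of Ensembl release 115. Scripts ran in Python 3.11.15 with pandas 2.3.3 for tables, numpy 2.4.6 for arrays, scipy 1.17.1 for the rank correlation and matplotlib 3.10.9 for plots. The best summit of a gene was the one with the highest signal. The joining of summits to genes was tested on simulated data. Members, lists, words and windows were chosen with earlier results of these data known. Every Vha gene is accounted for; beyond them, genes that share a member's peak, and bound genes of the acidification list, are named, together with genes nearest to or overlapping a summit, ATP6AP2 and Mitf, which were chosen after their values were seen. That list held 36 names, of which 31 genes were matched, 2 names were unmatched and 3 repeated a gene. Promoter words used the canonical transcript of each gene (1 gene had none, and its most upstream TSS was taken), and in an added reading every TSS. No test was made, because genes are not replicates and the study has 1 group.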

Additional observations from a re-analysis of the deposited data

How the results depend on the processing

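Of the counts computed under other settings, most stayed within 1.5 times the value reported (52 of 65 alternatives, among them the median rank of 3185, which was 3481.5 with the summit nearest to a TSS). Fewer peaks gave lower counts. In the stronger 3361 IDR peaks, 10 Vha genes, 8 main copies, 2 other paralogs, 9 acidification genes and 4 ATPsyn genes were bound. The 4 other paralogs fell to 1 within 100 bp, to 1 when a summit counted for its nearest TSS alone, and to 1, with 12 main copies and 13 Vha genes, when members with a shared peak were not counted, a setting chosen after seeing the data. With Vha68-1 and Vha100-1 moved to the main copies, 2 of 17 other paralogs and 16 of 16 main copies were bound. Reading the words at every TSS, added after seeing the data, raised the main copies with CACGTG from 0 to 3, with CGATA from 7 to 11 and with GAGAGAG from 1 to 3. The whole pooled list bound 28 of the 31 acidification genes, and 55.4% of all genes. Using 1 replicate alone gave 17 to 18 Vha genes, 14 main copies, 3 to 4 other paralogs, 14 to 19 acidification genes and 6 to 8 ATPsyn genes. The classes rest on background knowledge, and a peak list has no value where no peak was called.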
